A study of Mus musculus with 12 samples.

Results

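Crem, Rfx2, Mybl1, Gtf2a1l, Brdt, Tbpl1, Nr6a1, Sox5 and Ovol1 encode 9 proteins that control transcription while male germ cells pass through meiosis and shape spermatids. They were taken as every probe set on the arrays whose gene symbol in the platform annotation was one of these names, which gave 22 of 36701 probe sets that were not controls, for 9 of 15964 named genes. Each probe set is a group of short oligonucleotides that gives 1 signal, and the probes of some match several sequences. Germ cells of 4 kinds had been isolated from mice: spermatogonia of type A and of type B, spermatocytes in pachytene, and spermatids of the round stage. Their total RNA was labelled with the Affymetrix one-cycle procedure and read on the designs U74Av2, U74Bv2 and U74Cv2. Each cell type had 1 array on each design, 12 arrays in all. All groups were mouse germ cells with no treatment or altered allele named in the labels, and the isolation method, age and strain are not given in the sources used here.

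Spermatogonia divide by mitosis in the order type A, then type B, pachytene spermatocytes are in the long prophase of the first meiotic division, and round spermatids are the haploid cells that follow. Transcription in the later stages uses factors that other tissues lack or use little: germ-cell versions of the general machinery that places RNA polymerase II, activators that bind short DNA motifs, and a reader of acetylated histones. Mouse knockouts of several of these genes make no sperm, with arrest in meiosis or at the round spermatid stage.

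Signals are given in the units of the arrays after scaling, in the order type A, type B, pachytene, round. A floor of 50.01 to 50.03 units, depending on the design, was set, and a ratio with 1 cell type under it is a bound, written as "at least". Because each cell type had 1 array per design, no difference has a replicate check and no p-value is given. As a measure of technical spread, 27 control probe sets carried by all 3 designs gave the same log2 ratio 3 times, and its SD was 0.22 between type B and type A, 0.22 between pachytene and type B, and 0.43 between round spermatids and pachytene spermatocytes. These SDs cover the arrays and not the animals or the cell isolation. In such RNA from many cells, fewer cells of a type and less RNA per cell cannot be told apart, and the level of 1 probe set cannot be set against that of another.

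The array medians lay between 42.7 and 75.9 units, and 45.8% to 61.1% of the probe sets were over the floor. Of 228 readings of negative controls 22 were over the floor, and the highest was 103.5. The summed signal of 8 spermatogonia markers was 6523, 6597, 845 and 1991 units in type A, type B, pachytene and round, that of 8 spermatocyte markers was 2037, 1568, 36081 and 32293 units, and that of 8 round spermatid markers was 290.0, 355.7, 2684 and 36740 units. The spermatocyte sum was thus nearly as high in round spermatids as in pachytene spermatocytes. Of the 8 spermatocyte markers 6 were 2-fold or more higher in pachytene than in type B. Sycp1, a synaptonemal complex protein, went against the labels, at 220.0 in pachytene against 318.7 in type B, with round over pachytene at log2 1.05. Sycp3 was higher in pachytene than in type B by only log2 0.27. Of the 8 round spermatid markers 6 were 2-fold or more higher in round than in pachytene. Spaca1, an acrosomal membrane protein, also went against the labels, at 20.5 in round spermatids, under the floor. Prm2 was at log2 0.43 for round over pachytene, within the technical SD. Markers of somatic testis cells were present as well. The sum of 9 peritubular and fibroblast markers was 6365, 12501, 537.5 and 647.9 units, that of 11 Sertoli markers 6017, 4755, 3089 and 1057 units, that of 7 Leydig markers 1185, 1820, 1130 and 668.7 units and that of 8 leukocyte markers 624.0, 1054, 354.8 and 476.5 units in the 4 cell types, and the part of these cells in the results below was not tested. Amh of Sertoli cells, Hsd3b6 of Leydig cells and Ptprc of leukocytes were under the floor in all 4 cell types.

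The sequences around the starts of these genes show which of the motifs read by the members' own families they carry. The promoters below are RefSeq sequences of GRCm38.p6, 250 bases before to 50 after the annotated start, written in the direction of the gene, and are shown for the 4 genes that were higher in pachytene spermatocytes and have an entry, and for Nr6a1, which was higher in round spermatids. Capitals mark the motifs searched on both strands: CRE (TGACGTCA, bound by CREM), the RFX half-site (GTTGCC), MYB sites (TAACNG or CAACNG), the NR6A1 site (TCAAGGTCA), the SOX site (AACAAT), the TATA box (TATAAA), the box named CCAAT, and the E-box (CACGTG). The motif set was chosen after the signals were seen, and the first base of the transcript is counted as +1.
Rfx2, chr17:56830959-56831258, minus strand: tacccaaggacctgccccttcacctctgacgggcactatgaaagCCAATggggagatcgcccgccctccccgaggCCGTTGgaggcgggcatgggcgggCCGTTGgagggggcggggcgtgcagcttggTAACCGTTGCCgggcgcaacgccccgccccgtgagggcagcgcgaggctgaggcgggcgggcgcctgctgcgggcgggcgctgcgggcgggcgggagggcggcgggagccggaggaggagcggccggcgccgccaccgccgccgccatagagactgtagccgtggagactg
Gtf2a1l, chr17:88668410-88668709, plus strand: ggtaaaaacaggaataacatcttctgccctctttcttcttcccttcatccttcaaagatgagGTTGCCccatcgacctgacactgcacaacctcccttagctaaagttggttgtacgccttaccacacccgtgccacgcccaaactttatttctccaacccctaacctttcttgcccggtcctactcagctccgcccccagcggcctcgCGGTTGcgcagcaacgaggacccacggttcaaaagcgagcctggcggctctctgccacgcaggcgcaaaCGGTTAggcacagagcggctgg
Brdt, chr5:107330944-107331243, plus strand: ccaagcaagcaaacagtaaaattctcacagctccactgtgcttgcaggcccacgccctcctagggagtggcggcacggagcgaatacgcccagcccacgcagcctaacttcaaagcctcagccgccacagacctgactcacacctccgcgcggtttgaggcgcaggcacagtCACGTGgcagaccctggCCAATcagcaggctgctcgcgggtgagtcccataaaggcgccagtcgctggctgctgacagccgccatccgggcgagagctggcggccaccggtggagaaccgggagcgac
Tbpl1, chr10:22731398-22731697, minus strand: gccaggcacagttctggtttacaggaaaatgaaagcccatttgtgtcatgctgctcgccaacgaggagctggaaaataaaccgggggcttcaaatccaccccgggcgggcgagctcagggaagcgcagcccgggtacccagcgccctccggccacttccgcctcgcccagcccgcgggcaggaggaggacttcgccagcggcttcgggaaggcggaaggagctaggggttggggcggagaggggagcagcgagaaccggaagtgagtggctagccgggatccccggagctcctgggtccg
Nr6a1, chr2:38926412-38926711, minus strand: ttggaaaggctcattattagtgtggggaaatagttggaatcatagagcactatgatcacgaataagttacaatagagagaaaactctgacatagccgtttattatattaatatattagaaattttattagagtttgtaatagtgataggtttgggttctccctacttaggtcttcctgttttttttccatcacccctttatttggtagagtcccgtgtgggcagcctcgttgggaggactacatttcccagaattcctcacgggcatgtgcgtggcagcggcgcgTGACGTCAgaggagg

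The Rfx2 promoter, 75.7% G and C against a median of 52.7% over all promoters, held an RFX half-site at -116 to -111 that shared a base with a MYB site at -121 to -116. It also held 3 CCGTTG sites on the other strand, starting at -175, -151 and -118, the last of which overlapped both, and a CCAAT box at -206. The Gtf2a1l promoter held an RFX half-site at -188 and MYB sites on the other strand at -41 to -36 and at +29 to +34. Brdt held an E-box at -78 and a CCAAT box at -61, and Tbpl1 held none of the motifs. The Nr6a1 start shown held a full CRE at +36 to +43, and a second annotated start of Nr6a1 held a TAACTG and a SOX match that overlapped. Sox5, the member under the floor throughout, also has an entry, which is not printed. It held an RFX half-site at -16 to -11 and MYB sites of the CAACNG form at -58 to -53 and at -14 to -9. Among 32851 promoters of the same length, 1.79% held the CRE, 12.5% the RFX half-site, 23.3% the TAACNG form and 35.0% the CAACNG form of the MYB site, 0.423% the NR6A1 site, 10.7% the SOX site, 13.6% TATAAA, 37.4% CCAAT and 7.15% the E-box. Apart from the CRE and the E-box, each motif found in the promoters printed was thus held by 12.5% or more of all promoters. A match of letters is not a bound site.

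Between type B spermatogonia and pachytene spermatocytes, 5 of the 9 members had a pachytene signal 2-fold or more above that of type B and none was 2-fold lower, where 13.2% of all genes were higher and 17.9% lower. The 5 were Rfx2, Mybl1, Gtf2a1l, Brdt and Tbpl1, and Crem made a sixth under each of the 3 other scalings. All 5 were also at least 4-fold higher, a size that 6.08% of all genes reached. The median log2 ratio was 2.10 over the 9 genes and 0 over all genes. By probe set, 10 of the 22 were higher by 2-fold or more and 0 were lower, against 10.6% and 14.0% of all named probe sets. The other steps moved fewer members. In type B against type A spermatogonia 0 members were 2-fold higher and 1, Brdt, was lower, where 2.93% and 2.95% of all genes were. In round spermatids against pachytene spermatocytes 1, Nr6a1, was higher and 1, Mybl1, was lower, where 7.39% and 9.63% of all genes were. The list counts below stand against the same shares of all genes. By probe set, 0 of 22 were higher and 2 lower in type B against type A (2.53% and 2.86% of all named probe sets), and 2 were higher and 6 lower in round against pachytene (5.51% and 7.87%). Of the 22 probe sets 16 were over the floor somewhere and 6 were under it in all 4. Sox5 was the gene with no probe set over it.

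**Figure D1:**
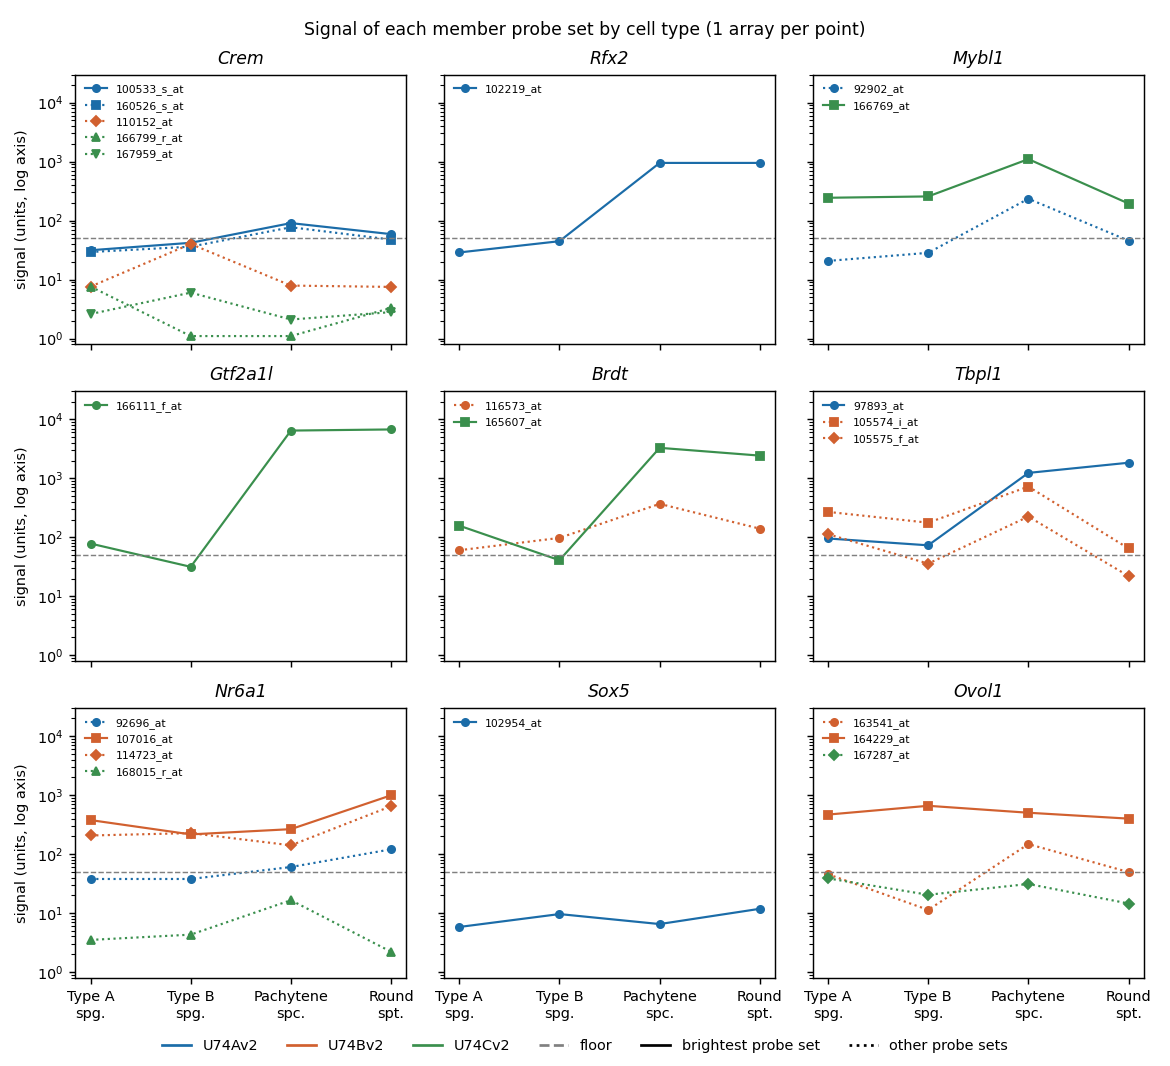
Scaled signal (units, log axis) of the 22 probe sets of the 9 genes in type A and type B spermatogonia, then pachytene spermatocytes, then round spermatids, 1 array per point; colours give the array design, solid lines the probe set with the highest mean of its gene, dotted lines its other probe sets and the dashed line the floor (values under 1 would be drawn at 1). Rfx2, Mybl1, Gtf2a1l, Brdt and Tbpl1 stand highest in the 2 later cell types or in pachytene spermatocytes, Nr6a1 in round spermatids, and Sox5 stays under the floor.

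Crem encodes a leucine zipper protein of the cAMP-responsive family, whose activator forms bind the CRE and drive haploid genes in spermatids, while other forms of the same gene repress. Crem had 5 probe sets, and at this scaling and floor no ratio or bound of theirs reached 2-fold at any step. Its ratio of pachytene over type B was close to that threshold: the log2 ratio was 1.03 to 1.11, past 2-fold, with each of the 3 other scalings, with a floor of 0.2 of the mean or of 1 unit, and with the floor at the highest negative control of the design. The brightest, 100533_s_at on U74Av2, read 31.4, 42.0, 90.6 and 58.9 units. The second, 160526_s_at, read 29.3, 36.1, 77.1 and 47.6 units, and the annotation gives it the same source sequence. Both thus peaked in pachytene spermatocytes, the first at least 1.81-fold over type B (log2 at least 0.86) and the second at least 1.54-fold. In round spermatids the first was 1.54-fold lower than in pachytene (log2 -0.62) and the second at least 1.54-fold lower, both more than the technical SD of 0.43. That SD came from controls over the floor throughout, whereas these readings lay near or under it. The highest of these readings is lower than the highest negative control of any array, 103.5, although on the U74Av2 arrays themselves the negative controls reached no more than 32.7. The remaining probe sets were under the floor everywhere: 110152_at on U74Bv2 read 7.6, 40.1, 7.9 and 7.5 units, 166799_r_at on U74Cv2 read 7.6, 1.1, 1.1 and 3.3 units, and 167959_at on U74Cv2 read 2.6, 6.0, 2.1 and 2.8 units. Without the probe sets whose names carry a letter such as _s or _r, which the maker gives where its ordinary rules of probe choice could not all be met or probes match several sequences, Crem had no probe set over the floor.

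The genes around CREM did not follow 1 course. Of 12 listed relatives and cofactors 10 were on the arrays and 8 over the floor. In pachytene against type B 0 were 2-fold higher and 2 lower, Crebbp (log2 -1.67) and Crtc3 (log2 -1.11), with a list median of -0.42. Of all genes 13.2% were higher and 17.9% lower at that step, so 2 of 10 lower was near the share of all genes. With arrays scaled to a common median or to the spike-in controls, the list median at that step was 0 and 0.00, with 1 higher and 1 lower under each, and with arrays set to the same distribution it was -0.27, with 0 higher and 3 lower. Creb1, the widely expressed relative that binds the same site, read 269.4, 163.7, 118.7 and 83.1 units, lowest in round spermatids and highest in type A. In round spermatids against pachytene, 1 of the 10 was higher and 2 lower, where 7.39% and 9.63% of all genes were. The higher one was Kif17, whose product carries a CREM coactivator in mouse spermatids, at 1721 units in round spermatids against 46.3 units in pachytene, at least 34.4-fold (log2 5.10). The lower ones were Crtc3 (log2 -1.87) and Prkar1a, a regulatory subunit of protein kinase A (log2 -1.51). In type B against type A, 0 were higher or lower and the median was -0.41, although scaled to spike-in controls 7 were lower, with a median of -1.24.

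Genes known in mouse to depend on CREM in spermatids differed most at the last step. Of 14 such genes, 9 were higher by 2-fold or more in round spermatids than in pachytene spermatocytes and 1 was lower. Of all genes 7.39% and 9.63% were. The median log2 ratio of the 14 was 3.27 against 0 over all genes. The sizes were largest for Akap4 of the fibrous sheath (2631 units in round against 91.2 in pachytene), Tnp2, a transition protein (10430 against 491.7), Smcp of the mitochondrial capsule (4130 against 215.4) and Odf1 of the outer dense fibres (6118 against 363.1). The lower one was Cyct, the testis cytochrome c, at 171.7 against 456.1 units, named after its values were seen. In pachytene against type B 9 of the 14 were already higher and 0 lower, where 13.2% and 17.9% of all genes were. The list median was 2.24, and 11 were higher under each other scaling. Crem itself had a bound of 1.81-fold at that step and was 1.54-fold lower at the last. The list was unmoved between the spermatogonial types, with 0 higher, 0 lower and a median of 0.

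Rfx2, a winged-helix factor that binds the X-box of ciliary genes and that mouse spermatids need to form flagella, was a single clear step. Its probe set 102219_at on U74Av2 read 28.8, 44.7, 950.7 and 950.9 units. Both spermatogonial readings were under the floor. Pachytene spermatocytes were at least 19.0-fold over type B (log2 at least 4.25), and round spermatids differed from pachytene by a log2 ratio of 0.00, within the technical SD. The order was thus round and pachytene together, then both spermatogonial types, which the floor does not separate. With a floor of 0.2 of the mean, type B was over type A by a log2 ratio of 0.63. With the floor at the highest negative control of the design that ratio was 0.45.

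Among the relatives of Rfx2, 5 of 7 listed genes were on the arrays, and 1 moved with it. Rfx8 (166383_r_at) read 35.7, 42.0, 645.8 and 1012 units, at least 12.9-fold higher in pachytene than in type B (log2 3.69). Rfx1 read 561.8, 586.6, 365.1 and 1366 units and was 3.74-fold higher in round than in pachytene. Rfx7 read 841.2, 446.4, 265.3 and 51.1 units and was lower at each step, with a log2 ratio of -2.38 at the last. Its pachytene over type B ratio depended on the scaling, at log2 -0.75 here and 0.01 when scaled to spike-in controls. Rfx3 read 69.3, 76.6, 29.5 and 19.5 units, and Rfx5, a regulator of MHC class II genes, 466.8, 802.2, 420.9 and 365.0 units. Rfx8 was the family's 1 gene 2-fold higher at the pachytene over type B step and 0 were lower. Of all genes 13.2% were higher and 17.9% lower, and the list median was -0.68. With arrays set to the same distribution of values 2 were lower, and the median ran from -0.80 to -0.11 over the other scalings.

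Axonemal and ciliary genes, the class RFX factors are known to bind, were higher in pachytene spermatocytes in nearly every case. Of 24 listed genes 21 were on the arrays. Of these, 18 were 2-fold or more higher in pachytene than in type B and 0 lower, where 13.2% and 17.9% of all genes were. The list median log2 ratio was 3.39. Under the other scalings 18 or 19 were higher. Spag6l, a central pair protein, read 6609 units in pachytene against 96.4 in type B. Dnali1, a dynein light intermediate chain, read 2996 against 4.7, Ropn1l, a radial spoke protein, 2725 against 12, and Dnah8, a dynein heavy chain, 2224 against 7.8 units. The type B readings of Dnali1, Ropn1l and Dnah8 were under the floor, so their log2 ratios were bounds, at least 5.90, 5.77 and 5.47. In round spermatids against pachytene 4 were higher, Foxj1, Tekt2, Tekt4 and Tekt3, and 5 lower, Dnah8, Dnali1, Ift140, Ift20 and Rsph1, with a median of -0.11. Of all genes 7.39% were higher and 9.63% lower at that step. Foxj1, the other transcription factor known for motile cilia, read 85.3, 56.7, 53.6 and 952.3 units, so it was high in round spermatids where Rfx2 was high in both later cell types. In type B against type A 1, Rsph1, was higher and 1, Spag17, lower, and scaled to spike-in controls 0 were higher and 6 lower.

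Mybl1, also called A-MYB, is the activator that mouse pachytene spermatocytes need to complete meiosis and to express pachytene piRNA precursors. Both of its probe sets were high in pachytene spermatocytes alone. Its probe set 166769_at on U74Cv2 read 243.8, 256.9, 1103 and 194.5 units, and 92902_at on U74Av2 read 20.7, 28.4, 234.8 and 45.6 units. For the first, pachytene was 4.29-fold over type B (log2 2.10) and round spermatids were 5.67-fold lower than pachytene (log2 -2.50). For the second, both were at least 4.69-fold. The type A, type B and round readings of 166769_at lay within the technical SD of each other, with log2 0.08 for type B over type A, -0.33 for round over type A and -0.40 for round over type B. The relative Mybl2 ran the other way, at 186.4, 103.1, 21.8 and 65.9 units, at least 2.06-fold lower in pachytene than in type B (log2 -1.04), although with each of the other scalings the bound was under 2-fold. Myb was under the floor in all 4 cell types.

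Of 17 listed piRNA pathway genes 11 were on the arrays. In pachytene against type B 9 of them were 2-fold or more higher and 0 lower (median log2 ratio 2.77). Of all genes 13.2% were higher and 17.9% lower at that step. For the list, each other scaling also gave 9 higher, with 1 lower where arrays were set to the same distribution. The largest ratios were those of Tdrd6, a chromatoid body scaffold (9996 units in pachytene against 67.4 in type B), Ddx25, a germ cell helicase (3073 against 120.0), Tdrd7 (2539 against 261.6) and Rnf17 (485.0 against 33.1). Rnf17 was under the floor in type B, so its log2 ratio was a bound, at least 3.28. In round spermatids against pachytene 0 were higher and 5 lower, where 7.39% and 9.63% of all genes were. The 5 were Rnf17, Piwil2, Tdrkh, Pld6 and Tdrd6, and the list median was -0.89. Rnf17 and Piwil2 were, like Mybl1, highest in pachytene with lower readings on both sides: Rnf17 read 33.8, 33.1, 485.0 and 45.0 units and Piwil2, a PIWI protein, read 518.7, 198.1, 932.2 and 106.0 units. Piwil2 was also the 1 gene of the list that was 2-fold lower in type B than in type A, where 0 were higher and the median was -0.58, and scaled to spike-in controls 7 of the list were lower.

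Gtf2a1l, also called ALF, is the germ-cell version of the large TFIIA subunit, which steadies TBP on promoters. It had the largest ratio of the members. Its probe set, 166111_f_at on U74Cv2, read 78.4, 31.6, 6464 and 6755 units. Pachytene spermatocytes were at least 129-fold over type B (log2 at least 7.01), and round spermatids were at log2 0.06 to pachytene, within the technical SD. Type B was at least 1.57-fold lower than type A, but on the U74Cv2 arrays of type A and type B the highest negative controls read 69.1 and 103.5 units, next to the 78.4 of type A. Against type A, pachytene was 82.4-fold and round 86.2-fold higher. The reading rests on 1 probe set whose ending _f is one of the maker's special endings.

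Gtf2a1, the widely expressed counterpart, read 221.3, 122.2, 466.1 and 86.7 units (pachytene over type B log2 1.93, round over pachytene log2 -2.43). The 2 genes for the large subunit were thus both higher at the first of these steps, while at the second Gtf2a1l stayed at its pachytene level and Gtf2a1 was lower. The small subunit gene Gtf2a2 read 264.6, 284.9, 717.7 and 1188 units.

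Tbpl1, also called TRF2, is a relative of the TATA-binding protein that mouse round spermatids need to form a proper acrosome and elongate. Its 3 probe sets were all higher in pachytene than in type B and disagreed on round spermatids. 97893_at on U74Av2 read 95.6, 73.2, 1238 and 1842 units. 105574_i_at on U74Bv2 read 270.1, 177.1, 725.0 and 64.7 units, and 105575_f_at, with the same source sequence, read 113.3, 35.8, 224.9 and 22.0 units. Pachytene was 16.9-fold over type B for the first (log2 4.08), 4.09-fold for the second and at least 4.50-fold for the third.

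At the round over pachytene step the first Tbpl1 probe set was 1.49-fold higher (log2 0.57, beyond the technical SD of 0.43), the second 11.2-fold lower (log2 -3.49) and the third at least 4.50-fold lower. The first and second differed by 16.7-fold in this ratio. Over all genes, 30.0% of 8154 pairs of probe sets of 1 gene differed by over 2-fold at this step, and 0.564% differed by as much. The highest level was thus in round spermatids by one source sequence and in pachytene spermatocytes by the other.

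**Figure D2:**
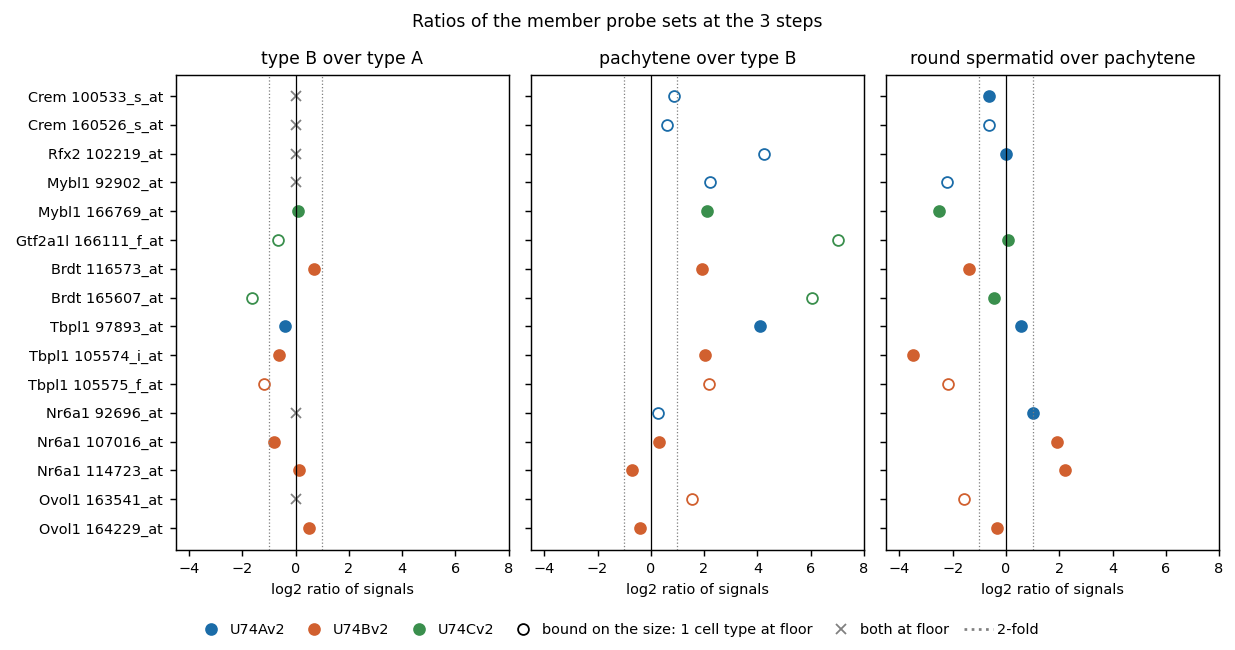
Log2 ratio of scaled signals for the 16 member probe sets over the floor somewhere, in type B over type A spermatogonia (left), pachytene spermatocytes over type B (middle) and round spermatids over pachytene (right); filled points are measured on both sides, open points are bounds on the size, crosses have both cell types at the floor and dotted lines mark 2-fold. In the middle panel 10 probe sets lie past 2-fold on the higher side and none on the lower; in the right panel the Tbpl1 probe sets lie at 0.57, -3.49 and -2.17.

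Tbp itself read 143.1, 123.7, 577.4 and 500.7 units, log2 2.22 for pachytene over type B, so the somatic form was higher in pachytene as well as Tbpl1. Of 30 listed general transcription factors 25 were on the arrays. Of these, 9 were 2-fold or more higher in pachytene than in type B and 2 lower, where 13.2% and 17.9% of all genes were. The list median log2 ratio was 0.84. The share that was higher depended on the scaling: 8 to 15 were higher, with medians of 0.51 to 1.54, under the other scalings. The largest were Gtf2b (890 units in pachytene against 183.0 in type B), Tbp, Gtf2h1 (612.5 against 155.9) and Gtf2a1, and the lower ones were Taf4b (log2 at most -2.03), a TFIID subunit that mouse spermatogonia need, and Taf13 (log2 -1.49). In round spermatids against pachytene 1, Taf9b (log2 1.54), was higher and 7 lower, with Taf2 at 52.5 against 363.2 units and Gtf2e1 at 314.8 against 1975. At that step 7.39% of all genes were higher and 9.63% lower. The list median there was -0.21. In type B against type A 0 were 2-fold higher or lower, with a median of -0.03, although scaled to spike-in controls 10 were lower.

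Brdt, the BET bromodomain protein of the testis, binds acetylated histones in spermatocytes and spermatids. Its probe set 165607_at on U74Cv2 read 157.7, 40.9, 3295 and 2432 units, and 116573_at on U74Bv2 read 60.4, 97.7, 369.5 and 140.2 units. Both were highest in pachytene spermatocytes, with round spermatids next. Pachytene was at least 65.9-fold over type B for the first (log2 at least 6.04) and 3.78-fold for the second (log2 1.92). Of all pairs of probe sets of 1 gene, 0.966% differed by as much at this step. Round spermatids were 1.35-fold lower than pachytene for the first (log2 -0.44, about the size of the technical SD) and 2.64-fold lower for the second. Between the spermatogonial types the probe sets went opposite ways: type B was at least 3.15-fold lower than type A for the first and 1.62-fold higher for the second. At the same step the peritubular and fibroblast marker sum was 12501 units in type B against 6365 in type A, and its part in these ratios was not tested. The U74Cv2 array of type B had a negative control at 103.5 units, and with a floor set at the highest negative control of the design the first was no longer 2-fold lower.

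The other BET genes on the arrays, Brd2 and Brd3, were within 2-fold at every step. Brd2 read 120.1, 111.1, 217.5 and 230.4 units, log2 0.97 for pachytene over type B, and Brd3 read 2095, 2119, 1467 and 977.6 units. Over the other scalings 1 of them was 2-fold higher at that step, and where arrays were set to the same distribution 1 was also lower.

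**Figure D3:**
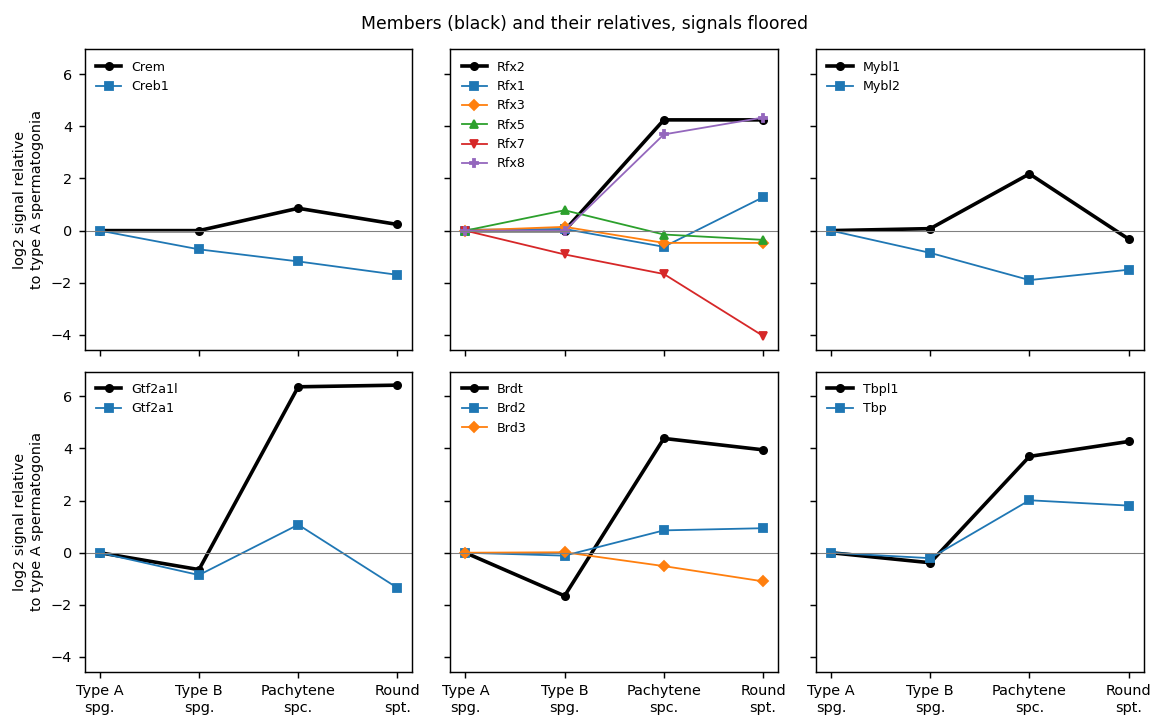
Log2 signal relative to type A spermatogonia, after the floor, in type A, type B, pachytene and round, for 6 members (black) and their relatives on the arrays (colours), each by its brightest probe set and 1 array per point. Rfx2 and Rfx8 run together, Gtf2a1l stays high in round spermatids where Gtf2a1 is lower, and Mybl1 peaks in pachytene spermatocytes where Mybl2 is lowest.

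Nr6a1, also called GCNF, is an orphan nuclear receptor that binds a direct repeat with no spacer and is known for its level in round spermatids. It was the member that was higher at the last step rather than at the pachytene over type B step. On U74Bv2, 107016_at read 377.0, 215.6, 264.6 and 992.4 units, and 114723_at read 206.5, 226.8, 140.7 and 648.2 units. On U74Av2, 92696_at read 37.8, 37.8, 60.3 and 120.3 units. All 3 were highest in round spermatids. Round spermatids were 3.75-fold (log2 1.91), 4.61-fold (log2 2.20) and 1.99-fold over pachytene. Below that level the order was not shared: for 107016_at type A was next and type B 1.75-fold lower than it, for 114723_at type A and type B differed by less than the technical SD, with pachytene 1.61-fold lower than type B, and for 92696_at pachytene was at least 1.21-fold over type B. The fourth, 168015_r_at on U74Cv2, read 3.5, 4.3, 16.5 and 2.2 units and was under the floor everywhere.

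Of 18 listed orphan nuclear receptors and retinoid receptors 17 were on the arrays and 14 over the floor, and 0 of them was at least 2-fold higher in round spermatids than in pachytene. At that step 2 were lower, Nr2c1 (log2 -2.63) and Nr2c2 (log2 -2.32), where 9.63% of all genes were, and the list median was 0. Scaled to a common median, to spike-in controls or to the same distribution, 1 was higher. Nr2c1, like Nr2c2 a testicular receptor, had another probe set, 92190_at, which read 30.6, 30.4, 472.7 and 460 units and so did not share the decrease. At the pachytene over type B step, by the brightest probe sets, Nr2c2 was the 1 higher gene (858.9 units in pachytene against 134.3 in type B). The Nr2c1 probe set 92190_at was higher there too, at 472.7 against 30.4 units, the latter under the floor. By the brightest probe sets 6 were lower (4 to 7 under the other scalings), where 13.2% of all genes were higher and 17.9% lower. Among the 6 were Nr4a1 (log2 -3.96), Rarb (log2 -2.82) and Nr2f2 (log2 at most -1.86), beside the peritubular and fibroblast marker sum that was lower at the same step. In type B against type A 1, Rarb, was higher and 0 lower, while scaled to spike-in controls 0 were higher and 4 lower.

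Sox5, an HMG-box factor known in mouse round spermatids, had 1 probe set, 102954_at on U74Av2, at 5.8, 9.6, 6.5 and 11.8 units. Each value was under the floor and below at least 1 negative control on the same array, so no level was measurable. Of 17 listed SOX genes 15 were on the arrays and 14 over the floor. At the pachytene over type B step 1, Sox17 (173.6 units in pachytene against 72.2 in type B), was 2-fold higher and 4 lower, Sox4, Sox12, Sox3 and Sox11. Of all genes 13.2% were higher and 17.9% lower, and the list median was -0.19. Under the other scalings 2 to 5 were lower and 2 or 3 higher, with medians of -0.36 to 0.17, so the list had no settled direction. In round against pachytene 1, Sox17 (log2 1.01), was higher and 2, Sox4 and Sox8, lower, and in type B against type A 0 were higher and 1, Sox8, lower, with 4 lower when scaled to spike-in controls.

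Ovol1, a zinc finger repressor that mouse spermatocytes need to pass pachytene, had 3 probe sets that differed. The brightest, 164229_at on U74Bv2, read 467.5, 658.6, 502.4 and 398.9 units, highest in type B and within 2-fold throughout, although with arrays scaled to a common median or to the spike-in controls pachytene was above type B (log2 0.21 and 0.19). Type B was 1.41-fold over type A, and type A, pachytene and round differed from each other by no more than the technical SD. The second, 163541_at on U74Bv2, read 45.5, 11.3, 147.6 and 49.5 units, with pachytene at least 2.95-fold over type B and round at least 2.95-fold lower than pachytene. The third, 167287_at on U74Cv2, read 38.7, 20.4, 31.1 and 14.5 units, under the floor. The peak in pachytene was thus carried by 1 of the 3, and at this step 11.0% of all same-gene pairs differed by as much as the first and second.

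Of the 4 genes listed with Ovol1, 3 were on the arrays. Ovol2, its relative, read 137.5, 38.8, 753.1 and 581.9 units (165555_i_at), at least 15.1-fold higher in pachytene than in type B and at least 2.75-fold lower in type B than in type A. Its ending _i is one of the maker's special endings, and a negative control on the U74Cv2 array of type B read 103.5 units, over its 38.8. Id2, a gene that OVOL1 represses in mouse, read 468.6, 416.2, 114.7 and 48.4 units, 3.63-fold lower in pachytene than in type B and at least 2.29-fold lower in round than in pachytene. Myc, another such gene, was under the floor throughout. At the pachytene over type B step 1 of the 3 was thus higher and 1 lower.

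**Figure D4:**
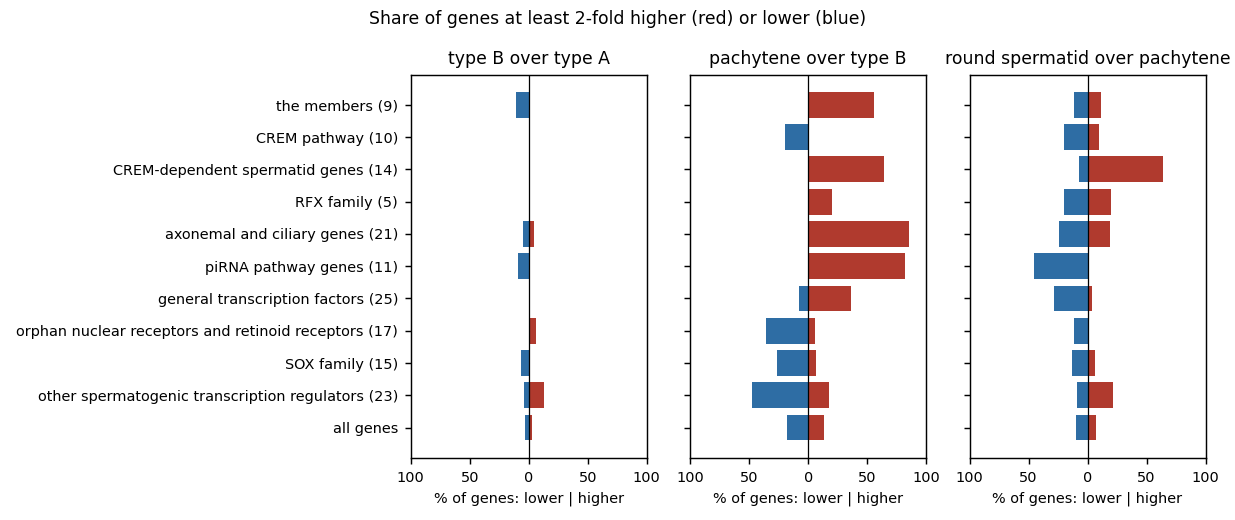
Percent of genes at least 2-fold higher (red, to the right) or lower (blue, to the left) at each of the 3 steps, for the 9 members, for lists of related genes (number on the arrays in brackets) and for all 15964 genes; each gene stands for its brightest probe set. At the pachytene over type B step 5 of 9 members, 18 of 21 axonemal and ciliary genes and 9 of 11 piRNA pathway genes were higher, and at the last step 9 of 14 CREM-dependent spermatid genes were.

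Each member over the floor was also set against the other genes of its array design, with each gene's 4 floored log2 signals centred on their mean and the root mean square difference as the measure of likeness over the 4 cell types. The 3 nearest genes to Rfx2 were Arsa (0.056 log2), Fam50b (0.12) and Phf7 (0.13), and Arsa, the lysosomal arylsulfatase A, read 15.5, 13.9, 1045 and 969.6 units. The nearest to Gtf2a1l were 1700019A02Rik (0.089), Marchf11 (0.20) and Stpg4 (0.23), all on probe sets ending in _f like that of Gtf2a1l itself. The nearest to Brdt were Ttc29 (0.26), Spag17 (0.28) and Stpg4 (0.29), of which Spag17 is a central pair protein of the axoneme. For Tbpl1 they were Fabp9 (0.16), Tesk1 (0.16) and Haspin (0.16), of which Tesk1, a testis kinase, read 131.0, 96.1, 1285 and 2433 units. For Mybl1 they were Nmbr, Arhgap20 and 9330102E08Rik (0.15 to 0.17), and for Nr6a1 Pcnx2, 1700047F07Rik and Med29 (0.15 to 0.16). Med29, a Mediator subunit, read 927.5, 652.9, 714.1 and 2232 units. The flatter Crem and Ovol1 had nearer matches. They were Fbxl5, Mrtfa and Vps35 for Crem (0.043 to 0.055) and Krtap22-2, Zfp536 and Kctd5 for Ovol1 (0.012 to 0.037). Krtap22-2 read 59.9, 83.9, 63.4 and 18.2 units and Zfp536 58.9, 87.5, 64.7 and 34.4 units. Their round readings were set to the floor, so part of their likeness to Ovol1 comes from the floor. The floor enters other matches as well. Rfx2 and its 3 nearest genes were under it in both spermatogonial types. Fabp9 and Haspin were under it there too, while Tbpl1 was not. The likeness values describe 4 points in each gene, among 4539 to 6131 genes per design.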

How the data were processed

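The authors deposited 1 intensity signal per probe set for each of 12 Affymetrix arrays, linear in scale. MAS5 is named in the submitters' processing notes, with neither version nor settings given. The 2% trimmed means of the deposited signals lay between 125.02 and 125.10, so arrays had been scaled alike. Here arrays were brought to the geometric mean of those means within their design, values under 0.4 of it were set to that floor, and log2 was taken. Signal over background stands for depth, and 1 array per cell type and design limits the precision.

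Of 36701 probe sets, 29131 had 1 gene symbol in the platform annotation, and 29044 of these matched RefSeq genes of GRCm38.p6. A gene was represented by its probe set with the highest mean signal. Genes counted as higher or lower at 2-fold or 4-fold. The members and lists were chosen with earlier results of these data known. All probe sets of the members are named, other genes only from the lists (up to 4 of a list, those with the largest ratios, paralogs apart) or as the 3 nearest in likeness; genes behind counts of 5 or fewer are also named, after their values were seen. The lists cover CREM, RFX, MYB, BET, OVO, SOX and nuclear receptor relatives, general transcription factors, CREM-dependent, axonemal and piRNA pathway genes, other spermatogenic regulators and cell type markers. There were 9 alternatives, and 1 was added after the data were seen. Python 3.11.15, numpy 2.4.6, pandas 2.3.3 and matplotlib 3.10.9 were used, and the counting was tested on simulated data.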

Additional observations from a re-analysis of the deposited data

How the results depend on the processing

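No called ratio of a member turned its sign under the 9 alternatives or the added one. The count of 5 members higher in pachytene than in type B was also 5 with a floor of 0.8 of the mean and with the mean over probe sets. It was 6 with each of the 3 other scalings and with the floor at 0.2, at 1 unit or at the highest negative control, where Crem passed 2-fold, 4 without special endings, and 3 with U74Av2 alone, which carries 6 of the members. The log2 ratio of Rfx2 at that step ran from 3.25 to 4.50, of Mybl1 from 2.03 to 2.87, of Gtf2a1l from 5.96 to 7.68, of Brdt from 3.98 to 6.33 and of Tbpl1 from 2.76 to 4.85, all past 2-fold wherever they had a value; Gtf2a1l has none on U74Av2 or without special endings, and Brdt none on U74Av2. The count of 1 member lower in type B than in type A was the least stable: 3 with spike-in scaling, 2 with a floor of 0.2 of the mean, 2 with a floor of 1 unit, and 0 with a floor of 0.8, with the mean over probe sets, with U74Av2 alone and with the floor at the highest negative control, an alternative chosen after seeing the data. For Brdt that ratio ran from -1.95 to -0.48. For round over pachytene, the 1 higher member, Nr6a1, became 0 on U74Av2 alone, where it was 1.99-fold higher, and the 1 lower member, Mybl1 (-2.50 to -2.07), became 2 with the mean over probe sets, where Tbpl1 was at -1.69 against 0.57. The Crem log2 ratio of pachytene over type B, 0.86, was 1.03 to 1.11 under those 6 alternatives, 0.30 with the mean over probe sets, and 0 with a floor of 0.8 or without special endings. Spike-in scaling moved the median of all genes by -0.83 for type B over type A and by 0.71 for pachytene over type B, and scaling to the median moved the latter step by 0.53. The spike-in controls read 1.66 to 1.85 times higher on the type B than on the type A arrays. The cause of these changes was not tested. No paired analysis was possible because each cell type had 1 array per design. Depth limits Crem, Sox5 and the spermatogonial readings of Rfx2, Gtf2a1l and Brdt, most of which lie under or near the floor. Readings of Crem 100533_s_at and 160526_s_at and of Rfx2 were over the highest negative control of their own arrays in all 4 cell types. Brdt 165607_at in type A, at 157.7 units, was also over that of its array, 69.1.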

Other observations

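Among 26 other transcription regulators known from spermatogenesis, 23 were on the arrays, and more were lower than higher at the pachytene over type B step. In pachytene spermatocytes against type B spermatogonia 4 were higher by 2-fold or more and 11 lower, and the median log2 ratio was -0.81, where 13.2% and 17.9% of all genes were. Under the other scalings 4 or 5 were higher and 7 to 10 lower. The higher ones were Tcfl5, a helix-loop-helix factor, at 7977 units in pachytene against 597.4 in type B, Dmrtb1 (2376 against 208.6), Spz1 (163.1 against 14.3) and Zfp42 (106.0 against 6.8). The type B readings of Spz1 and Zfp42 were under the floor, so their log2 ratios were bounds, at least 1.71 and 1.08. The lower ones with the largest ratios were Dmrt1, which holds spermatogonia in mitosis in mouse, at 61.2 against 659.1 units, Stra8, the retinoic acid target needed for meiotic entry, at 17.2 against 492.5, Klf4 (132.6 against 1209) and Sall4 (96.8 against 647.0). Stra8 was under the floor in pachytene, so its log2 ratio was a bound, at most -3.30. In round spermatids against pachytene spermatocytes 5 were higher, Spz1, Klf4, Sall4, Hsf2 and Dmrt1, and 2 lower, Tcfl5 and Zfp42. Spz1 read 6077 units in round spermatids against 163.1 in pachytene, a log2 ratio of 5.22, above that of any member at this step. In type B against type A 3 were higher, Sall4, Klf4 and Tcf3, and 1, Zbtb16, lower, with a median of 0. That balance turned with the scaling: 0 were higher and 9 lower, with a median of -0.79, when scaled to spike-in controls, and 1 was higher and 2 lower when scaled to a common median.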
